A study of Equus caballus with 25 samples.

Results

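Programmed cell death is held in check by a small number of proteins that act at different points. BCL2 and BCL2L1, which gives BCL-XL, sit on the outer mitochondrial membrane and stop the release of factors that set off caspases. CFLAR, also called FLIP, resembles a caspase without its enzyme activity and blocks the signal that death receptors send to caspase 8. STAT5A is a transcription factor that cytokine receptors switch on through JAK kinases, and it drives genes for survival, BCL2L1 among them. In the airway, where neutrophils die soon after they arrive, such genes are studied for their part in how long inflammatory cells persist.

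RNA of cells from bronchoalveolar lavage fluid was measured on one-colour arrays, 1 array per horse. The 25 horses (Equus caballus) were 7 labelled Control (CTRL), 10 labelled IAD, the inflammatory airway disease now named mild to moderate equine asthma (MEA), and 8 labelled RAO, the recurrent airway obstruction now named severe equine asthma (SEA). All groups share the tissue and the extraction kit. By the study's methods the SEA horses were older than those of both other groups, and the CTRL horses were all standardbreds while most diseased horses were saddle horses. Age and breed thus went with group, and their part in the differences was not tested. Each array carried 2 spots of each probe, and levels are log2 intensities averaged over both spots after normalization between arrays. Of 7238 transcripts, 4930 passed the intensity limit, which left out those below 4.5 in at least 19 arrays. The share of spots well above background had a median of 77.7% in CTRL, 74.0% in MEA and 72.7% in SEA, and arrays ranged from 58.2% to 90.8%. The number of horses limits the precision.

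Each of the 4 genes was measured by 1 probe of 60 bases. None of the probes shared a run of 20 bases with another probe of the array. The probes for BCL2L1 and CFLAR are shown because the levels of those genes rest on these bases.

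BCL2L1 (ENSECAT00000018124): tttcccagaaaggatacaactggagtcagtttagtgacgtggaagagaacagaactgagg
CFLAR (ENSECAT00000022842): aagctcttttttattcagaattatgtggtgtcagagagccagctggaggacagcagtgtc

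The BCL2L1 probe held a stop codon in 1 of its 3 reading frames, and the CFLAR probe held one in 0 of 3. The BCL2 probe (ENSECAT00000021660) held one in each of 3 frames and was 36.7% G and C, so that it cannot lie wholly in coding sequence if it is read as filed. The STAT5A probe (ENSECAT00000013906) was 35.0% G and C. Whether it also reads RNA of the near-identical gene STAT5B was not tested.

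The signal of BCL2 and CFLAR was well above background on both spots of all 25 arrays. The BCL2L1 signal was well above background on 13 of 14 spots in CTRL, 16 of 20 in MEA and 16 of 16 in SEA. For STAT5A these counts were 12 of 14, 19 of 20 and 16 of 16. STAT5A lay near the limit of 4.5, with 2 CTRL, 5 MEA and 1 SEA horses below it. Its spots differed by up to 1.69 on the log2 scale within an array. No spot of the 4 probes was saturated.

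BCL2, the mitochondrial guardian that gives the family its name, ranged in CTRL from 5.34 to 6.25 with a median of 5.77 on the log2 scale. In MEA its level ranged from 4.89 to 7.33 with a median of 6.17. In SEA it ranged from 5.07 to 7.93 with a median of 7.34. Of the 8 SEA horses, 7 lay above the highest CTRL horse, and SEA replicate 1 lay below the lowest. The order of the means was CTRL, 5.78 ± 0.31 (SD, n = 7), MEA, 6.18 ± 0.70 (SD, n = 10), and SEA, 7.11 ± 0.90 (SD, n = 8).

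BCL2L1, which acts beside BCL2 on the mitochondrion, ranged in CTRL from 4.02 to 5.12 with a median of 4.70. Its MEA levels ran from 2.26 to 6.13 around a median of 4.98, and its SEA levels from 5.27 to 6.96 around a median of 6.18. The lowest SEA horse was above the highest CTRL horse, so that these groups did not overlap. How many of all tested transcripts separated the groups in this way was not counted, so this is a description only. MEA overlapped both, with 4 of 10 horses above the highest CTRL horse. The CTRL mean was 4.66 ± 0.37 (SD, n = 7), the MEA mean 4.88 ± 1.09 (SD, n = 10) and the SEA mean 6.13 ± 0.50 (SD, n = 8).

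CFLAR, the inhibitor at the death receptor, ranged in CTRL from 4.92 to 7.63 with a median of 5.50. The MEA levels ran from 5.903 to 9.38 around a median of 6.24, and the SEA levels from 5.905 to 8.75 around a median of 7.94. The groups overlapped, and the highest of the 25 values belonged to MEA replicate 3. The CTRL mean was 5.82 ± 0.97 (SD, n = 7), the MEA mean 6.71 ± 1.06 (SD, n = 10) and the SEA mean 7.58 ± 1.01 (SD, n = 8).

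STAT5A, the only transcription factor of the 4, ranged in CTRL from 3.84 to 5.64 with a median of 4.62. The MEA levels ran from 3.701 to 6.12 around a median of 4.66, and the SEA levels from 3.94 to 6.26 around a median of 5.58. Of the SEA horses, 4 of 8 lay above the highest CTRL horse, and SEA replicate 6 lay near the lowest CTRL horse. The CTRL mean was 4.63 ± 0.53 (SD, n = 7), the MEA mean 4.69 ± 0.75 (SD, n = 10) and the SEA mean 5.47 ± 0.72 (SD, n = 8). For all 4 genes the means ran CTRL, MEA, SEA from low to high, but for STAT5A the CTRL and MEA means changed places in some alternatives.

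**Figure D1:**
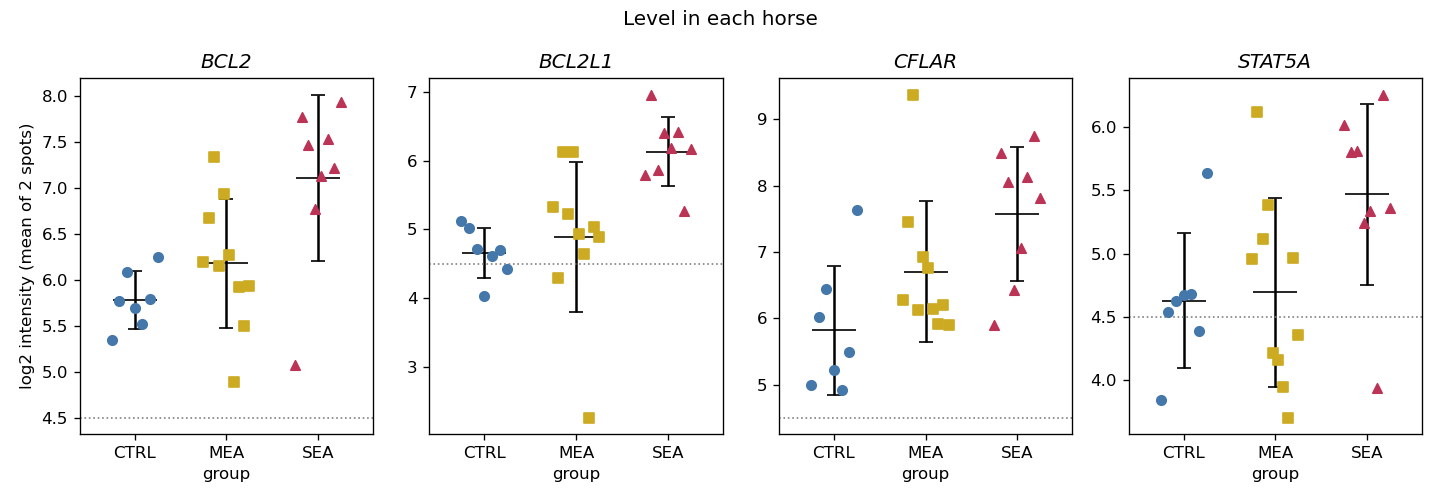
Log2 intensity of the 4 genes in each of 25 horses by group, with 1 point per horse, bars at the group mean and SD, and a dotted line at 4.5. BCL2L1 did not overlap between CTRL and SEA, which was not counted over all transcripts. Single horses stood far below or above their group, such as SEA replicate 1 for BCL2 at 5.07.

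The comparison of SEA with CTRL asked how severe asthma differs from health. A transcript counted as called when its limma adjusted p was under 0.1 and the groups differed 1.5-fold or more. All 4 genes were called higher in SEA, against 15.9% of all tested transcripts called higher and 16.6% called lower. The 4 genes were chosen with earlier results of these horses known, so their count is a description.

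BCL2L1 was higher in SEA by 1.47 ± 0.24 (SE) on the log2 scale, with an adjusted p of 0.00329, or 2.78-fold. CFLAR was higher by 1.76 ± 0.47 (SE), with an adjusted p of 0.0176. BCL2 was higher by 1.33 ± 0.34 (SE), with an adjusted p of 0.0158. STAT5A was higher by 0.84 ± 0.32 (SE), with an adjusted p of 0.0588. The STAT5A call is the least steady of the 4. With the authors' normalized table its difference was 0.71 with an adjusted p of 0.136, and it was not called. It also lost its call under quantile normalization, scaling to the 75th percentile, background correction by normexp and with epithelial percentage as a covariate. Without CTRL replicate 1, CTRL replicate 6, SEA replicate 2 or SEA replicate 7 its adjusted p was 0.128, 0.104, 0.1001 and 0.101. Under normexp BCL2L1 kept an adjusted p of 0.00830, but its difference of 0.51 was under the fold limit.

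The arrays lay on 4 slides, each with all 3 groups. With slide as a block the SEA minus CTRL differences were 1.18 for BCL2, 1.504 for BCL2L1, 1.65 for CFLAR and 0.85 for STAT5A, and each was called. Within slides 1 to 4 the BCL2L1 differences were 0.72, 1.84, 1.51 and 1.75. For CFLAR they were 0.40, 2.1099, 2.49 and 0.19. Both genes were thus higher in SEA on all 4 slides. For BCL2 the differences were -0.49, 1.51, 1.57 and 1.68, and slide 1 held SEA replicate 1 as its 1 SEA array. For STAT5A they were 1.82, 0.79, 0.83 and -0.28, and slide 4 held 1 SEA and 1 CTRL array.

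The comparison of MEA with CTRL asked the same of the milder disease. Of the 4 genes 0 were called, against 3.23% of tested transcripts called higher and 6.51% called lower. The CFLAR difference was 0.89 ± 0.46 (SE) with an adjusted p of 0.263 and a 95% interval from -0.09 to 1.86. For BCL2 it was 0.40 ± 0.28 (SE) with an adjusted p of 0.405, from -0.18 to 0.98. BCL2L1 differed by 0.23 ± 0.40 (SE) with an interval from -0.61 to 1.07, and STAT5A by 0.07 ± 0.32 (SE) with one from -0.59 to 0.73. These intervals include both no difference and differences past the fold limit of 0.58 on the log2 scale. The BCL2L1 difference was 0.52 without MEA replicate 8, 0.088 without MEA replicate 3 or MEA replicate 5 and 0.12 without CTRL replicate 4, and that of CFLAR was 0.59 without MEA replicate 3. All 10 MEA horses lay above the CTRL mean for CFLAR and 8 of 10 for BCL2, but only 7 of 10 for BCL2L1 and 5 of 10 for STAT5A. With slide as a block the differences were 0.50 for BCL2, 0.40 for BCL2L1, 0.73 for CFLAR and 0.06 for STAT5A. With replicate number as a block, where horses without a partner carry no weight, they were 0.57, 0.58, 1.19 and 0.22 in the same order. With the epithelial covariate they were 0.20 for BCL2, 0.50 for BCL2L1 and 0.38 for CFLAR. On slides 1 to 4 the differences were 0.88, 0.93, 0.33 and -0.34 for BCL2, -0.26, 1.36, 0.22 and 0.17 for BCL2L1, 1.35, 1.45, 0.78 and -0.93 for CFLAR, and 1.35, 0.12, -0.34 and -1.22 for STAT5A. On slide 4 there were 5 MEA horses and 1 CTRL horse. This comparison shares its CTRL horses with the one before it.

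The comparison of SEA with MEA tested directly whether the diseases differ. Of the 4 genes 0 were called, against 1.32% of tested transcripts called higher and 0.730% called lower. BCL2L1 was higher in SEA by 1.25 ± 0.40 (SE), with an adjusted p of 0.121 and an interval from 0.42 to 2.07. BCL2 was higher by 0.93 ± 0.36 (SE), with an adjusted p of 0.167. CFLAR differed by 0.87 ± 0.46 (SE) and STAT5A by 0.78 ± 0.33 (SE), with adjusted p of 0.276 and 0.199. That a gene was called between SEA and CTRL but not between MEA and CTRL therefore does not show that the diseases differ in it.

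The count of 0 changed when single horses were left out, and BCL2L1 was also called with all 25 arrays in 1 fit. Without MEA replicate 3 the SEA minus MEA differences of BCL2, BCL2L1 and CFLAR were 1.06, 1.39 and 1.17, and these 3 genes were called, with adjusted p of 0.0754, 0.0464 and 0.0626. Without SEA replicate 1 BCL2 and BCL2L1 were called, at 1.22 and 1.298. Without MEA replicate 5 BCL2L1 was called at 1.39, and without SEA replicate 6 STAT5A was called at 0.997. The count of all called transcripts moved with the same horses, from 101 to 554 without MEA replicate 3 and to 351 without SEA replicate 1. With slide as a block the differences were 0.69 for BCL2, 1.02 for BCL2L1, 0.68 for CFLAR and 0.80 for STAT5A. Under normexp they were 0.55, 0.37, 0.44 and 0.22 in the same order, and 0 were called, in a setting that called few transcripts of any kind. BCL2L1 and STAT5A were higher in SEA on all 4 slides, whereas BCL2 and CFLAR were lower on slide 1, by -1.36 and -0.95.

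**Figure D2:**
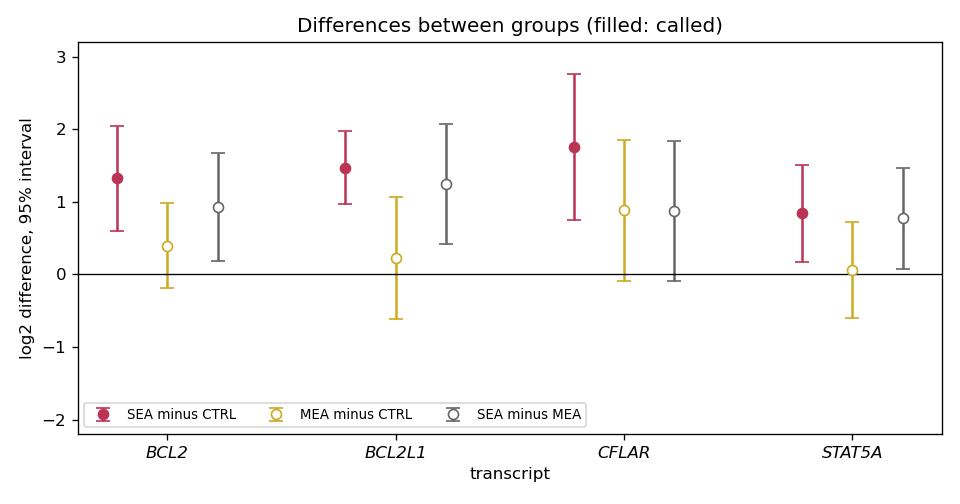
Log2 differences of the 4 genes in the 3 comparisons, with 95% intervals as bars and filled points where the gene was called. The SEA minus CTRL points lie between 0.84 and 1.76, and the open points of the other comparisons are above 0 and not called.

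Neutrophil percentages came from the study's cytology, matched by horse code, and did not overlap between the 3 groups. Neutrophil share and disease group therefore cannot be told apart over all 25 horses, and relations were computed within SEA and within MEA only. The neutrophil transcripts did not order the horses as the counted percentage did, with MEA replicate 3, SEA replicate 1 and SEA replicate 6 as examples. SEA replicate 8, highest of SEA in percentage, had a summed intensity of these transcripts of 16683, under the 20995 of CTRL replicate 2. The relations below are thus with the counted percentage, which need not measure neutrophil RNA. Whether smear and RNA match was not tested in any horse, which limits these relations. In bulk samples, more cells of a type and more RNA per cell cannot be told apart either. In SEA, 8 horses, Pearson's r with neutrophil percentage was 0.05 for BCL2 (exact permutation p = 0.882), and -0.22 for BCL2L1 (exact permutation p = 0.581). For CFLAR r was -0.20 (exact permutation p = 0.656). For STAT5A r was 0.57 (exact permutation p = 0.157). Spearman's rho was 0.07, -0.36, -0.31 and 0.07 in the same order, with exact permutation p of 0.882, 0.389, 0.462 and 0.882.

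In MEA, 10 horses, r was 0.08 for BCL2 (permutation p = 0.829), -0.26 for BCL2L1 (permutation p = 0.499), 0.0017 for CFLAR (permutation p = 0.997) and 0.27 for STAT5A (permutation p = 0.457). Here rho was 0.04, -0.33, 0.33 and -0.11, with permutation p of 0.927, 0.351, 0.353 and 0.766. All p are two-sided. Over the 8 relations the adjusted p was 0.997 for each r and at least 0.924 for each rho, so that no relation was detected. The SEA value of STAT5A rested on SEA replicate 6, the horse lowest in percentage and in STAT5A, and without that horse r was -0.56. Leaving out the 2 horses farthest from the median percentage gave r of 0.21, -0.12, -0.12 and -0.46 in SEA, and -0.13, -0.44, -0.09 and -0.53 in MEA, in the order BCL2, BCL2L1, CFLAR and STAT5A.

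Slopes on neutrophil percentage were also fitted with limma to all tested transcripts. Within SEA 0.0406% of transcripts, 2 of 4930, had an adjusted p below 0.1, and within MEA 0.0203%. At an unadjusted p below 0.05 these were 547 and 203 transcripts. The STAT5A slope in SEA was 0.30 ± 0.17 (SE) log2 units per 10 percentage points, with an adjusted p of 0.500. In MEA the largest slope of the 4 in size was that of BCL2L1, -1.09 ± 1.26 (SE), with an adjusted p of 0.903.

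**Figure D3:**
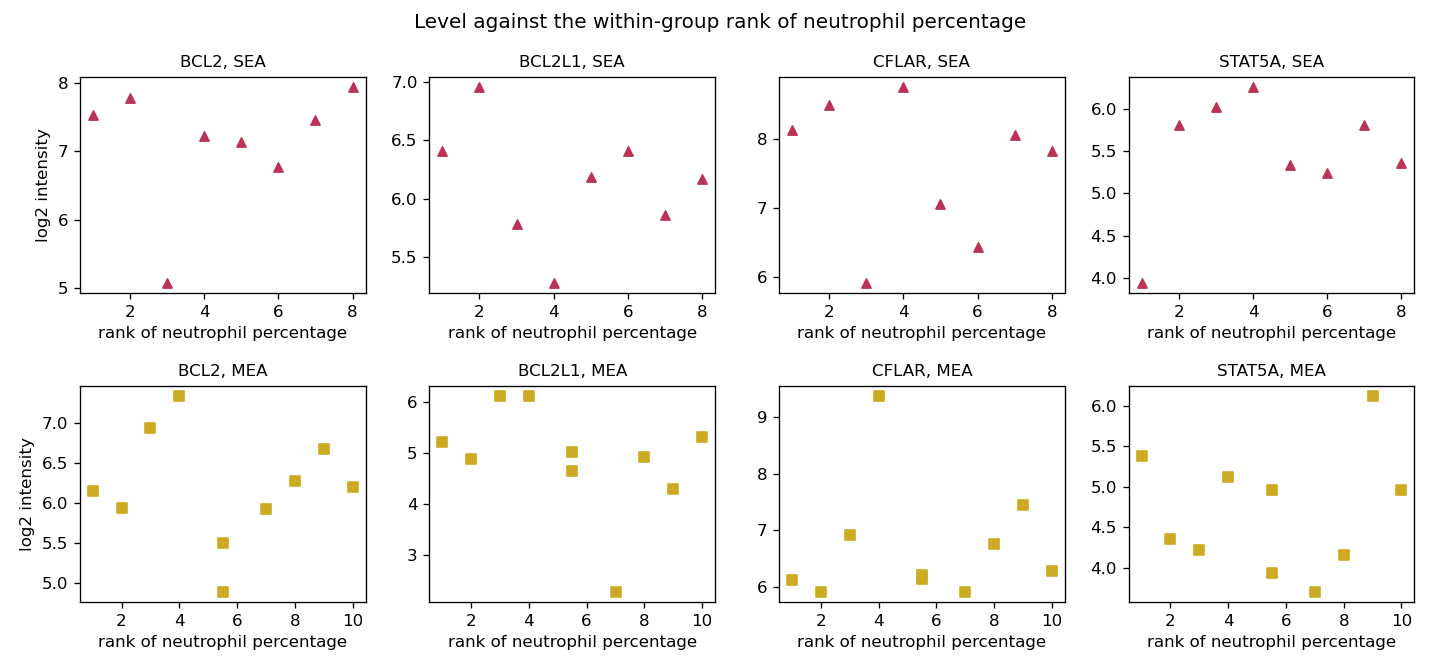
Log2 intensity of each gene against the rank of the neutrophil percentage within SEA (8 horses, upper row) and within MEA (10 horses, lower row), where rank 1 is the lowest percentage. No gene rises or falls steadily with rank, and in the STAT5A panel of SEA the horse at rank 1 lies lowest.

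With each group's mean subtracted, BCL2 and CFLAR moved together over the 25 horses, with r = 0.76 and rho = 0.86. The permutation p within groups was 1e-05 for both, the smallest that 100000 resamples can give, and 6e-05 after adjustment over the 6 pairs. Without the 2 horses farthest from the median of BCL2, r was 0.80. Within CTRL, MEA and SEA r was 0.93, 0.76 and 0.80. For the other 5 pairs r ranged from 0.03 to 0.34, with adjusted p from 0.287 to 0.892. BCL2L1 and BCL2, the family members that act at the same membrane, gave r = 0.32, permutation p = 0.144. BCL2 and STAT5A gave r = 0.80 in CTRL and -0.30 in SEA, a difference that was not tested. Levels of 1 array share its RNA and its normalization.

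**Figure D4:**
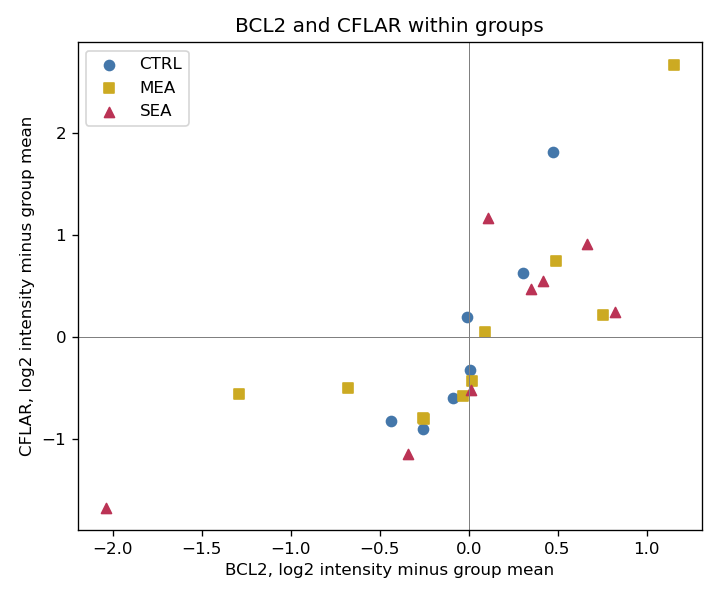
CFLAR against BCL2 in 25 horses, each as log2 intensity minus its group's mean, by group. Horses high in one gene were mostly high in the other (r = 0.76), with SEA replicate 1 at the lower left and MEA replicate 3 at the upper right.

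The named transcripts most like each gene over the 25 horses were found by Pearson's r of log2 levels. For BCL2 they were TBC1D9 (r = 0.90), CYLD (r = 0.89) and NR4A3 (r = 0.89). For CFLAR they were PRDM1 (r = 0.92), another transcript of TBC1D9 (r = 0.92) and SGK1 (r = 0.92). For BCL2L1 they were RABGEF1 (r = 0.86), PTPN22 (r = 0.85) and SPP1 (r = 0.83), and for STAT5A SLAMF1, SP4 and ZNF333 (r = 0.81 each). With group means subtracted these values were between 0.71 and 0.90.

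Symbols were known only for transcripts that had been published as changed in the same horses, so that counts over lists of named genes are not independent evidence. Of the 1683 tested transcripts with a symbol, 42% were called higher and 44.1% lower in SEA than in CTRL, 7.07% and 18.1% in MEA than in CTRL, and 3.57% and 1.6% in SEA than in MEA. Under normexp the SEA minus CTRL shares were 18.6% and 20.3% of 1864. With the epithelial covariate 0 of all tested transcripts were called between MEA and CTRL. Between SEA and MEA 0 of all were called under scaling to the 75th percentile. Normexp called 1 transcript with a symbol higher and 1 lower between SEA and MEA. A count of 0 in a list in these settings was thus fixed or nearly so and says nothing of that list. Of 7 transcripts of other BCL2 family members and their partners, 2 were called higher and 3 lower in SEA than in CTRL. The median difference was -0.68, against -0.39 over the tested transcripts with a symbol and -0.0064 over all tested transcripts. MCL1, a short-lived guardian like BCL2, was higher by 1.56 ± 0.36 (SE). BMF, a death-promoting member, was higher by 1.45 ± 0.48 (SE). BAD, which binds and blocks BCL2 and BCL-XL, was lower, with a difference of -1.05 ± 0.24 (SE). BAG2, a chaperone partner, differed by -1.77 ± 0.64 (SE), but its probe was well above background on only 4 of 8 SEA and 6 of 10 MEA arrays. The genes BNIPL and BCLAF1 were not called. In MEA 2 of the 7 were called lower, BAD at -1.01 and BAG2 at -1.88. Under normexp 1 of the 7 was called lower in MEA, and with the epithelial covariate 0 were. Between SEA and MEA BNIPL was called lower at -1.08, and 0 were called under normexp or scaling to the 75th percentile. Between SEA and CTRL 3 of the 7 lay above 0 and 4 below it under each other normalization too, and under normexp 1 was called higher and 1 lower.

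Of 21 transcripts of death receptors, caspases and their regulators, some at the step that CFLAR guards and others elsewhere, 17 were called higher and 2 lower in SEA than in CTRL, with a median of 0.92. Among all tested transcripts with a symbol 42% were called higher and 44.1% lower. Under normexp 9 of 21 were called higher and 1 lower. The receptors TNFRSF1B, TNFRSF10A and RELT were higher by 2.14 ± 0.44, 1.68 ± 0.31 and 1.66 ± 0.46 (SE). TNFAIP3, an inhibitor of signals from such receptors, was higher by 2.40 ± 0.63 (SE). In CTRL this TNFRSF10A probe was well above background on 6 of 7 arrays and that of RELT on 5 of 7. The CTRL mean of this TNFRSF10A probe, 3.80, lay under the intensity limit, and its SEA mean, 5.49, above it. That limit can keep transcripts high in diseased horses, which can favour their calls and was not tested. CIDEB and CASP10 were not called between SEA and CTRL. In MEA 7 of 21 were called higher and 1 lower, with a median of 0.65, against 1 higher and 1 lower under normexp. With the epithelial covariate 0 were called, at a median of 0.55, as were 0 of all tested transcripts. TNFRSF10A was among the 7 with 1.26 ± 0.24 (SE), and so was CASP10 with 0.65 ± 0.20 (SE). Between SEA and MEA 1 of 21 was called higher, RELT with 1.70 ± 0.40 (SE), against 0 under normexp or scaling to the 75th percentile.

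Of the 13 tested transcripts of cytokine signaling to STAT5, 10 were called higher and 1 lower in SEA than in CTRL, with a median of 1.47. By comparison, 42% of the tested transcripts with a symbol were called higher and 44.1% lower. Under normexp 4 of 14 were called higher and 0 lower. CSF3R, the receptor for the neutrophil growth factor G-CSF, was higher by 2.53 ± 0.97 (SE). SOCS3, a feedback inhibitor, was higher by 2.44 ± 0.58 and 2.32 ± 0.61 (SE) on its transcripts with the largest differences. CSF1, a growth factor for macrophages, was higher by 2.40 ± 0.34 (SE), with its CTRL signal well above background on 5 of 7 arrays. Its CTRL mean of 3.93 lay under the intensity limit and its SEA mean of 6.33 above it. The limit can keep transcripts that are high in diseased horses, which can favour such calls and was not tested. BCL6 and PIM2 were not called. In MEA 0 were called higher and 1 lower, PIM2 at -0.75 ± 0.26 (SE), a call lost with the epithelial covariate and under each other normalization but that of the authors. Between SEA and MEA 0 were called.

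All 12 tested transcripts of NF kappa B signaling, which also switches on BCL2L1 and CFLAR, were called higher in SEA than in CTRL. The median was 1.34, and 42% of the tested transcripts with a symbol were called higher. Under normexp 9 of 13 were called higher, against 18.6% of those with a symbol. NFKBID was higher by 2.05 ± 0.42 (SE), and the kinase MAP3K14 by 1.57 ± 0.45 (SE), with its CTRL signal well above background on 5 of 7 arrays. NFKBIA, the inhibitor that the pathway itself induces, was higher by 1.55 ± 0.41 (SE), and TANK by 1.54 ± 0.37 (SE). In MEA 1 of 12 was called higher, NFKBID with 1.17 ± 0.40 (SE), and 0 under normexp or with the epithelial covariate. Between SEA and MEA 2 of 12 were called higher, both of them transcripts of MAP3K14, with 1.59 ± 0.41 and 1.56 ± 0.37 (SE). Their MEA signal was well above background on only 6 of 10 and 4 of 10 arrays. Their means lay under the intensity limit in MEA, at 3.38 and 3.29, and in CTRL, at 3.40 and 3.54. Only their SEA means, 4.97 and 4.86, lay above it. The limit can keep transcripts that are high in SEA alone, which can favour these calls and the count of 12 of 12. How far it did so was not tested. For SEA minus MEA 0 were called under normexp, and 1 under quantile normalization or with the epithelial covariate. Scaling to the 75th percentile left 10 transcripts tested and 0 called, a count that may lack those of MAP3K14.

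**Figure D5:**
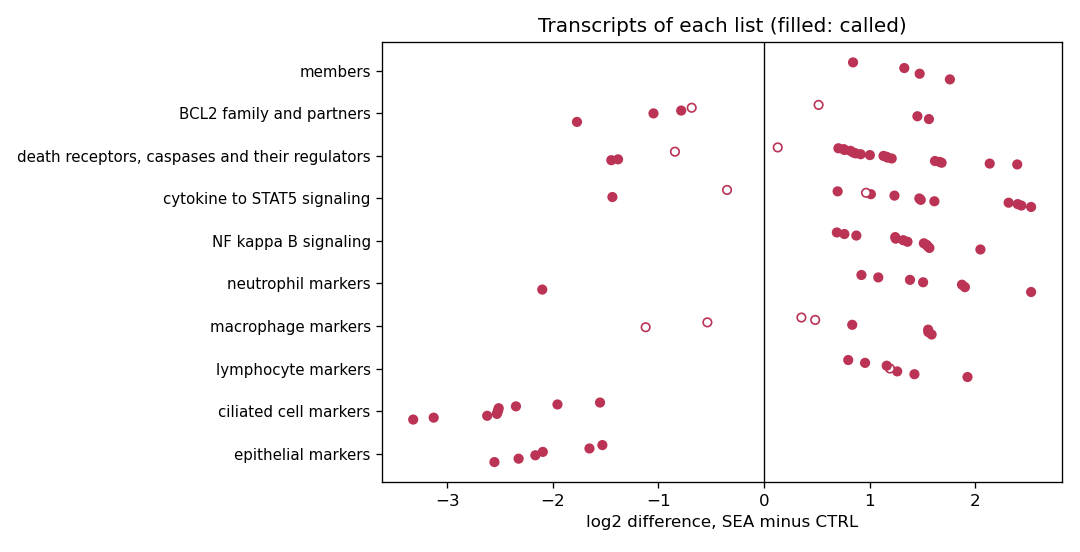
Log2 difference between SEA and CTRL of each tested transcript, by list, with filled points where it was called. The 4 survival genes and 12 of 12 NF kappa B transcripts lie above 0, and the 10 ciliated cell and 6 epithelial transcripts lie below 0. Of all tested transcripts with a symbol, 42% were called higher and 44.1% lower.

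Marker transcripts of cell types also moved with the groups, though not always as the counted cells did. Epithelial cells, for one, were counted least on average in CTRL, where their transcripts were highest. Of 8 neutrophil markers 7 were called higher and 1, LTF, lower in SEA than in CTRL, and 3 higher and 1 lower under normexp. Of the tested transcripts with a symbol, 42% were called higher and 44.1% lower, and under normexp 18.6% and 20.3%. Their mean log2 level was 9.08 ± 0.87 (SD, n = 7) for CTRL, 9.39 ± 1.01 (SD, n = 10) for MEA and 10.22 ± 1.08 (SD, n = 8) for SEA. The brightest probe was that of FCAR. Summed intensities had medians of 9418 in CTRL, 9324 in MEA and 19245 in SEA, so that MEA was not above CTRL in this measure, and they ran from 3719 to 20995 in CTRL, from 4837 to 94946 in MEA and from 6074 to 65354 in SEA. The highest sum was that of MEA replicate 3, and SEA replicate 1 had the lowest of SEA.

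All 10 ciliated cell markers and all 6 epithelial markers were called lower in SEA than in CTRL, with medians of -2.52 and -2.13. Of the tested transcripts with a symbol, 44.1% were called lower. In MEA 10 of 10 and 3 of 6 were called lower, with medians of -1.96 and -1.21, against 18.1% of those with a symbol. Symbols were known only for published changes in these horses, so these counts are a description. Under normexp 9 and 2 were called. With the epithelial covariate, where 0 of all tested transcripts were called, the counts were 0 and 0 while the medians stayed at -1.92 and -1.37. The brightest probes were those of ROPN1B and CLDN7. Summed ciliated intensities had medians of 11618 in CTRL, 4322 in MEA and 2979 in SEA, and epithelial ones of 18516, 7261 and 4932. The survival genes were thus higher in the group in which these transcripts were lower. With epithelial percentage as a covariate the medians of the ciliated and epithelial lists were -2.72 and -2.25, no smaller than without it, so that this covariate is no test of cell makeup.

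Of 8 tested macrophage markers 4 were called higher in SEA than in CTRL and 0 lower, against 42% and 44.1% of the tested transcripts with a symbol. MARCO, at -1.12, and VSIG4, at -0.54, lay below 0 and were not called, nor were the transcripts of SIGLEC1. By the study's cytology macrophages were nearly all inflammatory cells counted in CTRL but a small part in SEA. These transcripts did not follow that count. CD68 had the brightest probe, and STAB1 did not pass the intensity limit over all arrays. Summed macrophage intensities had medians of 48147 in CTRL, 62538 in MEA and 52133 in SEA. Of 7 tested lymphocyte markers 6 were called higher, against 42% of the tested transcripts with a symbol. Under scaling to the 75th percentile 2 of 7 were called higher, and under normexp 1 of 9. The CTRL means of CTLA4, FCRL1 and BLK lay under the intensity limit, at 3.68, 4.27 and 4.35. The MEA mean of CTLA4 did too, at 4.15, while its SEA mean was 5.11. That limit can keep transcripts that are high in SEA, which can favour these calls and was not tested. TRAT1 had the brightest lymphocyte probe, and median sums of the list were 256 in CTRL, 348 in MEA and 656 in SEA. The part of cell makeup in the differences of the 4 genes was not tested.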

How the data were processed

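RNA of BAL cells from 25 horses was measured on Agilent one-colour arrays. Groups and replicate numbers were taken from the labels. The authors deposited the intensity of each spot, detrended and background-subtracted by the scanner software, and a table of intensities normalized by cyclic loess with R 2.11.1 per the labels' processing notes. Cyclic loess (span 0.7, 3 iterations) was applied to log2 intensities, the mean of both spots was taken, and a transcript was removed when 19 or more arrays had it below 4.5. Each comparison was fitted to its 2 groups with limma 3.58.1 (lmFit, eBayes) in R 4.3.3, in place of the nonparametric test of the methods. The p-values were adjusted by Benjamini-Hochberg over all tested transcripts. The steps were tested on simulated data. Relations used permutation tests, exact for SEA, and 100000 resamples otherwise. Neutrophil and epithelial percentages and symbols were taken from the study's text and tables. Named list genes are at most 4 called transcripts with the largest absolute SEA minus CTRL difference and 2 not called. Likeness lists hold the 3 transcripts with the highest r. The members and lists were chosen with earlier results of these data known. Alternatives were other normalizations, background correction, filters, a rank sum test, 1 fit of 25 arrays, slide or replicate number as a block, an epithelial covariate and leaving out each horse. Single spots and scan as a block were added after the data were seen.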

Additional observations from a re-analysis of the deposited data

Results flagged for a closer look

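Of 30 sets of values, each a measure in 1 group, 5 held a horse that stood apart from its group, by the gap to its neighbour relative to the group's range. Chance gives about 1 in 20 sets. SEA replicate 1 had a BCL2 level of 5.07, with the next horse at 6.77. MEA replicate 8 had a BCL2L1 level of 2.26, with the next at 4.29, and that probe was not well above background on either of its spots. MEA replicate 3 had a CFLAR level of 9.38, with the next at 7.45. SEA replicate 6 had a STAT5A level of 3.94, with the next at 5.24. MEA replicate 3 also had a mean neutrophil marker level of 11.96, with the next at 10.01. The causes were not tested.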

How the results depend on the processing

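BCL2 and CFLAR kept their direction and their call between SEA and CTRL in all 29 alternatives, from 0.70 to 1.62 and from 0.89 to 2.06 on the log2 scale, with adjusted p up to 0.0544 and 0.0772. BCL2L1 did so in 28 of 29, and under normexp it fell to 0.51. STAT5A kept its call in 19 of 29. It was not called under normexp (0.21), scaling to the 75th percentile (0.58), the authors' table (0.71), quantile normalization (0.66), the epithelial covariate (0.74) and the second spot of each probe (0.71). Leaving out single horses gave STAT5A differences from 0.71 to 1.06 and 3 to 4 genes called. Under normexp 2 genes were called. Its offset of 50 lifts dim signals, so that the intensity limit removed no transcript. For the other losses the cause was not tested.

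Between MEA and CTRL 0 of the 4 genes were called in any alternative. STAT5A turned to -0.0088 under normexp, -0.0054 with the epithelial covariate and -0.15 on the second spot, and leaving out horses gave -0.092 to 0.24. Between SEA and MEA BCL2L1 was called at 1.25, as 1 of the 4 genes, with all 25 arrays in 1 fit. Leaving out single horses gave 0.79 to 1.22 for BCL2, 0.96 to 1.39 for BCL2L1, 0.71 to 1.17 for CFLAR and 0.67 to 0.997 for STAT5A, and 0 to 3 genes called. The cause was not tested.

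The r with neutrophil percentage stayed without a small p in all alternatives, the lowest adjusted p being 0.685. The sign held for BCL2L1 in SEA and MEA and CFLAR in SEA. In SEA r turned to -0.049 for BCL2 and -0.021 for STAT5A, and in MEA to -0.027 for CFLAR, under scaling to the 75th percentile. Quantile normalization gave -0.047 for BCL2 in SEA. Leaving out horses gave -0.13 to 0.38 for BCL2 and -0.56 to 0.66 for STAT5A in SEA, and -0.057 to 0.28 for BCL2, -0.15 to 0.48 for CFLAR and -0.12 to 0.43 for STAT5A in MEA. The r of BCL2 and CFLAR stayed between 0.72 and 0.78 in 29 alternatives. CFLAR and STAT5A reached 0.64 under scaling to the 75th percentile, with an adjusted p of 0.00336. BCL2L1 and STAT5A turned to -0.075 under quantile normalization, -0.26 under normexp and -0.012 in the authors' table, and ran from -0.35 to 0.13 without single horses. BCL2 and STAT5A turned to -0.10 under normexp. The cause was not tested.

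The number of all transcripts called moved more. Between SEA and CTRL it was 1601, and 754 under normexp. Between MEA and CTRL it was 480, or 9.74% of those tested, but 3.47% with slide as a block, 118 transcripts under normexp, 216 with scan as a block, 0 with the epithelial covariate in limma (613 at an unadjusted p below 0.05), and 157 to 740 without single horses. Between SEA and MEA it was 101, with 64.4% higher, but 40 under quantile normalization (34 of them higher), 2 under normexp, 25 by the rank sum test, 265 with all arrays in 1 fit, 37 with the epithelial covariate and 29 on the second spot. It was 2 with scan as a block, and 2 to 554 without single horses. It was 0 under scaling to the 75th percentile (993 at an unadjusted p below 0.05) and 0 with slide as a block (657). That scaling moved the median difference of all transcripts between SEA and MEA to -0.13. Under normexp 18.6% of the calls between MEA and CTRL were higher, against 33.1%.

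Same-numbered horses of 2 groups are different horses. The correlation of their deviations from the group means ranged from -0.44 to 0.41 and was over 0.1 in 3 of 7, 4 of 7 and 3 of 8 pairs, so the numbers were not taken to pair them. With the number as a block, which drops unpaired horses, the SEA minus CTRL differences were 1.21 for BCL2, 1.47 for BCL2L1, 1.73 for CFLAR and 0.86 for STAT5A, and no call of the 4 genes changed. All calls were then 1348 for SEA minus CTRL, 136 for MEA minus CTRL and 0 for SEA minus MEA (637 at an unadjusted p below 0.05). The dim signal of STAT5A, and of BCL2L1 outside SEA, limits how well their differences are measured.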

Other observations

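The neutrophil marker transcripts and the counted neutrophils did not order the horses alike. MEA replicate 3, with the highest summed marker intensity of the 25 arrays at 94946, had rank 4 of 10 in neutrophil percentage within MEA. SEA replicate 6, with the highest sum in SEA at 65354, had rank 1 of 8, the lowest percentage of its group. SEA replicate 8, at rank 8, had a sum of 16683. SEA replicate 1, at rank 3, had the lowest sum of SEA at 6074, under the CTRL median of 9418. These horses were named after their values were seen.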
